A study of Homo sapiens with 2 samples.

Results

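CpG-dense islands at promoters are stretches of the autosomes where CpG dinucleotides crowd around the start of a protein-coding gene, and their methylation was read here in 2 acute myeloid leukemia (AML) cell lines by whole-genome bisulfite sequencing. A CpG was counted as dense if more than 40 other CpGs lay within 500 bp of it, and dense CpGs up to 200 bp apart were joined into islands of 20 or more. An island was kept if it overlapped the 1000 bp on either side of a transcription start site (TSS), taken as the most upstream base of a protein-coding gene in a GENCODE release lifted to GRCh37. Of 29747 dense islands, 11634 met this rule, which is 39.1% of them, and another 10443 lay inside gene bodies and 7670 between genes. The rule used positions alone and no methylation value. The lines were OCI-AML3, labelled DNMT3A mutant, and AML5 (OCI-AML5 in the sample record), labelled DNMT3A wild type, sequenced as 1 library each. The paper states that both were grown as their supplier specifies, without giving the medium of each. With 1 library per line there was no replicate of either line, so no difference below was set against variation between cultures, and DNMT3A status cannot be told apart from any other difference between these cell lines.

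CpG islands hold the start sites of most human genes and are, unlike the rest of the genome, usually kept free of 5-methylcytosine. Dense methylation of a promoter island goes with stable silencing, and is normally met at imprinted genes on 1 parental copy, at germline genes in somatic cells and on the inactive X chromosome. In leukemia and other cancers, islands of developmental regulators and of some tumor suppressors gain methylation. DNMT3A is one of the enzymes that lay down new methylation.

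Windows of 160 bp from 5 islands show what such DNA looks like, chosen because each stands for a pattern described below. They are the windows with the most measured CpGs in the island that touch no protein-coding exon, they are written 5′ to 3′ on the strand of the gene from GRCh37, and capitals mark CpGs. AMN1 (chr12:31882187-31882346) was unmethylated in OCI-AML3 and methylated in AML5. H3C3 (chr6:26045419-26045578) and ZNF160 (chr19:53606851-53607010) had the opposite pattern. SYCP3 (chr12:102132754-102132913) was methylated in both lines, and SNURF (chr15:25200895-25201054) belongs to an imprinted gene.
AMN1: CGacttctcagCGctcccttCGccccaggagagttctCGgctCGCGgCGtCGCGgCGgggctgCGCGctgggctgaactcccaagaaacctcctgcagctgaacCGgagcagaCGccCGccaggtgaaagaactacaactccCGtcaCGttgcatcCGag
H3C3: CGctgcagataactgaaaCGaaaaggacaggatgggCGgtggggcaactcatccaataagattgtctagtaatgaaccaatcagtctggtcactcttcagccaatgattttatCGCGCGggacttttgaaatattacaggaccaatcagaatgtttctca
ZNF160: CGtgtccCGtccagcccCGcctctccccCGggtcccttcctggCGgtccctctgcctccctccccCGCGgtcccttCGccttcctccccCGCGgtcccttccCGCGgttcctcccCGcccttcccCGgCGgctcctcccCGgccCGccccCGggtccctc
SYCP3: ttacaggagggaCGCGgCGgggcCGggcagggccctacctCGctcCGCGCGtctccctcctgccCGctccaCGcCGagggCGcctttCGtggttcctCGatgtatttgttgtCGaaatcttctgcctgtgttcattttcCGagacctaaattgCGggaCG
SNURF: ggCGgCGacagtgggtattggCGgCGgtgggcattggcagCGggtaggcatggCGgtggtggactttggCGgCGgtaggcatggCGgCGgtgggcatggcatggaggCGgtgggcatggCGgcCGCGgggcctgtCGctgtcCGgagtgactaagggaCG

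All CpGs printed in capitals were read enough to be measured. At the 18 CpGs of the AMN1 window the level, which is the percentage of calls that were methylated, was 0% in OCI-AML3 at every CpG and ran from 86.7% to 98.2% in AML5, with a median of 93.5%. The lines did not overlap at any CpG of this window, which lay 132 bp upstream of the gene's start. In the H3C3 window, 34 bp upstream, the 6 CpGs were at 93.8% to 96.9% in OCI-AML3 and all at 0% in AML5. The 18 CpGs of the ZNF160 window, 164 bp upstream, were at 39.0% to 95.8% in OCI-AML3 and again at 0% in AML5. The SYCP3 window was near full methylation at all 18 CpGs, with medians of 95.2% and 95.5% in OCI-AML3 and AML5. The SNURF window, downstream of the start, held 17 CpGs at 29.7% to 100% in OCI-AML3, with a median of 91.7%, and at 22.2% to 42.9% in AML5, with a median of 35.7%. The ranges of the lines overlapped there.

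The typical (median) promoter island was 1382 bp long and held 110 CpGs, with a median GC content of 64.3% and a median ratio of observed to expected CpGs of 0.778. They held 1483669 CpGs over 18.2 Mb, or 5.55% of autosomal CpGs. They covered 13317 of 19222 protein-coding gene symbols (69.3%), and 10506 of the islands lay across a TSS. Of the islands, 1589 served 2 genes and 122 served 3 or more. The longest, at 28044 bp, was the DUX4 repeat array, where only 665 of its 2749 CpGs could be measured. An island was measured if at least 10 of its CpGs had more than 5 reads in both lines, which 11567 islands did, and 52 of the 67 others had no such CpG. Its level was the mean over those CpGs. In all 902802339 calls came from OCI-AML3 and 894828667 from AML5, with a median over promoter islands of 53.4 and 37.6 calls per CpG. The median island thus rested on 5847 and 4095 calls, at which a share below 0.0513% or 0.0733% rests on fewer than 3 calls. The mitochondrial share of methylated calls, 0.169% in OCI-AML3 and 0.1% in AML5, was above these values. Intervals and tests on calls cover counting error only.

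Most promoter islands were unmethylated in both lines. Their medians were 3.15% in OCI-AML3 and 6.64% in AML5, against 85.0% and 89.6% for the islands in gene bodies and 78.2% and 84.1% for the intergenic ones. Below 20% in both lines were 7696 promoter islands (66.5%, against 34.5% of all dense islands), and above 66% in both were 726 (6.28%, against 39.8%). Those low in both had medians of 0.641% in OCI-AML3 and 2.08% in AML5. GC content was alike in the classes, with medians of 64.3% at promoters, 64.7% in gene bodies and 64.0% between genes, whereas the ratio of observed to expected CpGs had medians of 0.779, 0.640 and 0.657 over measured islands. Single CpGs of promoter islands showed the same split, since 77.6% of the 1434921 measured were under 20% in OCI-AML3 and 72.9% in AML5. Members just inside the limits of the rule had higher levels than the median island. The 70 islands of 20 to 24 CpGs had medians of 51.4% in OCI-AML3 and 64.7% in AML5, beside 60.4% and 54.7% for the 67 clusters of 15 to 19 that were just outside. The 328 islands whose edge lay more than 500 and up to 1000 bp from a TSS had medians of 27.3% and 41.5%, beside 48.3% and 54.0% for the 350 in the next 500 bp outward.

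**Figure D1:**
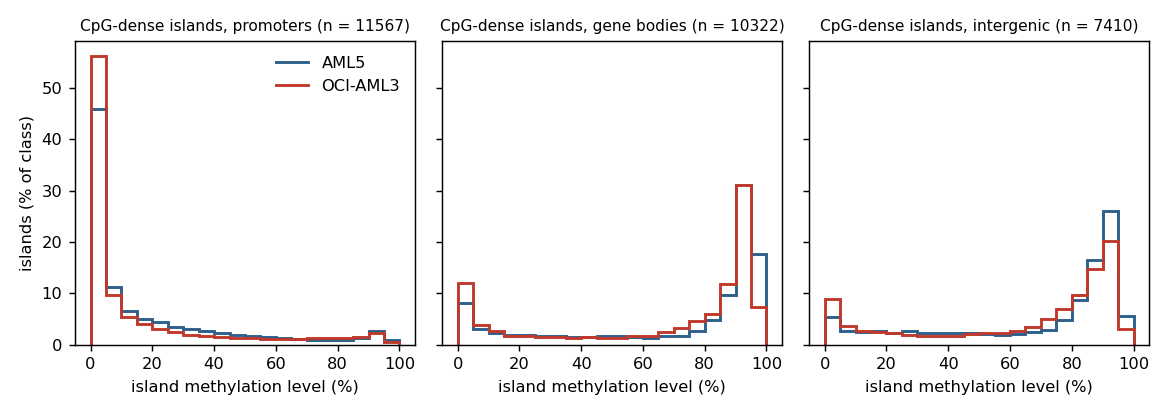
Share of islands (y axis, % of the class) by island methylation level (x axis, %, in bins of 5 points) for promoter, gene body and intergenic islands, with 1 library per line. In promoter islands the lowest bin held 56.2% of islands in OCI-AML3 and 45.8% in AML5, while the other classes peaked near full methylation in both lines.

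OCI-AML3 was the less methylated line at most promoter islands, by a small margin. The level was lower in OCI-AML3 at 75.1% of them, with a median difference (OCI-AML3 minus AML5) of -0.987 points and a mean of -2.81 points (SD over islands 13.1). The shift was seen at the low end of the range, where 44.7% of islands were under 2% in OCI-AML3 and 33.1% in AML5. In gene bodies the mean difference was -4.69 points and between genes -4.45 points. Within 5 points of each other were 65.6% of promoter islands.

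Large differences ran both ways. A difference was called where the levels stood at least 20 points apart and Fisher's exact test on the pooled calls, adjusted by Benjamini-Hochberg over all 29299 measured dense islands, was under 0.05. By this rule 748 promoter islands were lower in OCI-AML3 (6.47%, against 7.62% of all dense islands) and 421 were higher (3.64%, against 3.26%). Lower islands thus outnumbered higher ones 1.78 to 1 at promoters, 3.17 to 1 in gene bodies and 2.41 to 1 between genes, a comparison of classes that was not tested. The size rule decided the calls, since 8799 islands passed Fisher's exact test and 7630 of them differed by under 20 points. The adjusted p was at most 1.35e-09 over the lower islands and 9.47e-16 over the higher ones in Fisher's exact test, which compares these libraries and not the conditions, and which takes calls from the same read as independent.

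The lower islands had medians of 14.3% in OCI-AML3 and 51.8% in AML5, and 459 of the 748 were under 20% in OCI-AML3. Just 106 of them differed by 50 points or more. The higher islands had medians of 67% and 30.8%, with 63 of the 421 at 50 points or more and 128 under 20% in AML5. A full switch between states was rare. Above 66% in AML5 and below 20% in OCI-AML3 were 55 islands (0.475%, against 0.693% of all dense islands), and 34 had the opposite switch (0.294%, against 0.215%).

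**Figure D2:**
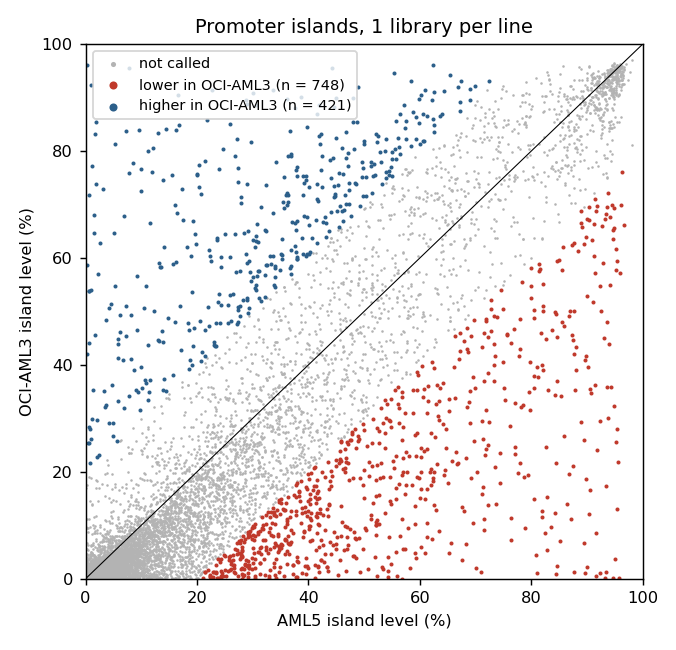
Each point is 1 measured promoter island, with its level in AML5 (x axis, %) and in OCI-AML3 (y axis, %), and the line marks equal levels. The 748 lower islands (red) and 421 higher islands (blue) spread over the whole range of levels, while most other islands (grey) crowd at the lower left corner.

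The largest decreases were islands near full methylation in AML5 and empty in OCI-AML3. First stood CDKN2B (chr9:22008467-22009670), which encodes the cell cycle inhibitor p15 and is a known target of methylation in myeloid leukemia, at 0.176% ± 0.51 (SD over 44 CpGs) in OCI-AML3 and 95.7% ± 7.18 in AML5. Its pooled share was 0.192% (Wilson 95% interval 0.0881% to 0.419%) in OCI-AML3 and 95.8% (93.6% to 97.3%) in AML5. Depth differed widely here, with means of 70.95 calls at a CpG for OCI-AML3 and 10.3 for AML5, and only 44 of the island's 97 CpGs were measured. The neighbouring island of CDKN2A, which encodes p16, was as shallow in AML5, at 9.42 calls per CpG against 63.7, yet was empty in both lines, at 0.129% and 0.130%. The part of depth in the CDKN2B value was not tested. Depth in OCI-AML3 was more than 3 times that in AML5 at 28 measured promoter islands in all, 5 of them among the lower ones.

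The next largest decreases had smaller gaps in depth, the widest being 66.5 and 30.9 calls per CpG at CAVIN3. The island of AMN1 (chr12:31881569-31882559) was at 0.205% ± 0.721 in OCI-AML3 and at 93.2% ± 4.73 in AML5 (77 CpGs), as its sequence window showed. CES1, which encodes a carboxylesterase and has a near-identical copy beside it that could share reads, was at 0.179% in OCI-AML3 and 94.7% in AML5 over 32 CpGs. BSCL2, which encodes the lipid droplet protein seipin, was at 1.21% and 93.4%. Levels were as far apart for C3orf62 (3.69% and 95.1%) and for DOK2 (1.12% and 92.3%), an adaptor that dampens tyrosine kinase signals in blood cells. CAVIN3 (chr11:6340428-6342240), a coat protein of caveolae, was at 1.01% ± 1.88 and 89.6% ± 17.6 over 121 CpGs. In GSTM2, a glutathione transferase, the values were 2.24% and 90.1% at 21 CpGs, and in SLC29A1, the nucleoside carrier that also takes up cytarabine, they were 1.18% and 87.6%. In each of these islands at least 97.5% of the measured CpGs were lower in OCI-AML3 by 20 points or more.

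TRIP6, which encodes a LIM domain protein of focal adhesions, showed that neighbouring islands of 1 gene could part ways. Its island across the TSS (chr7:100464727-100465842) was at 0.456% in OCI-AML3 and 91.5% in AML5. Its nearby upstream island was at 90.6% and 95.1% and was not called. Of 155 genes with 2 or more measured islands, 19 had some but not all islands lower and 2 had all lower. Some but not all were higher in 3 genes, all were higher in 3, and 0 had 1 of each. Both RSRC1 and SHOX2, which share their islands, are among the 19. Over all promoter islands 6.47% were lower and 3.64% higher. In some genes the islands differed the same way and only the size limit parted them. Examples were ISL2 (-22.5, -15.3 and -18.9 points), GLIS2 (-20.9 and -14.0) and ZNF462 (25.6 and 19.8). PTGES3, a co-chaperone of HSP90, had 1 island at 0.0707% and 1.4% and another at 1.06% and 81.0%. STIL, a centriole assembly protein, had 1 island near 0 in both lines and another at 30.02% in OCI-AML3 and 93.8% in AML5. MUC1, a membrane mucin, kept an island at 92.3% and 91.8% beside one at 5.89% and 60.2%.

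**Figure D3:**
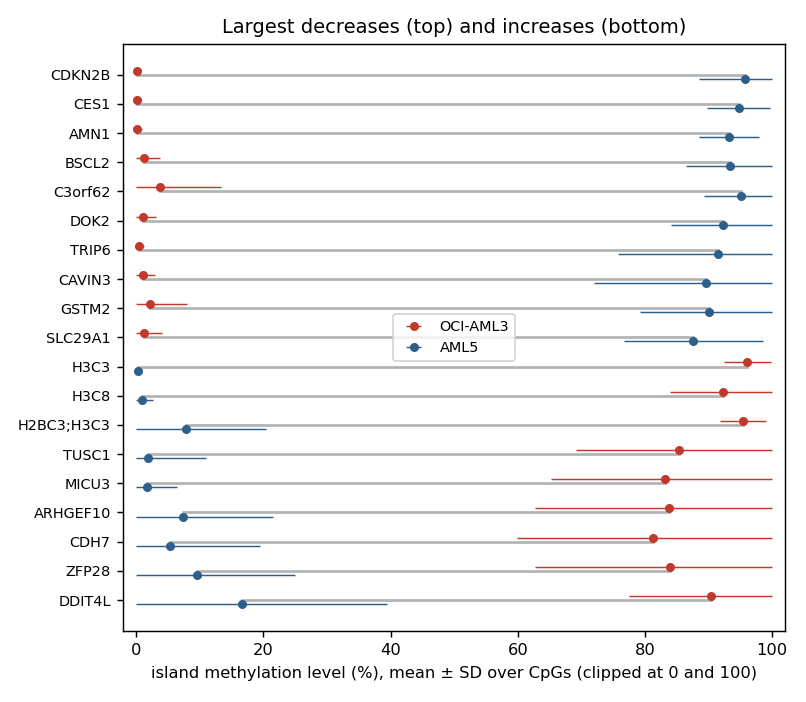
Level (x axis, %) of the 10 islands with the largest decrease (top) and of 9 islands from the 10 with the largest increase (bottom) in OCI-AML3 (red) and AML5 (blue). Points are means and bars are 1 SD over the measured CpGs of the island, clipped at 0 and 100, so they show spread along the island and not between cultures. CDKN2B is the widest decrease (0.176% and 95.7%) and H3C3 the widest increase (96.1% and 0.301%).

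Histone genes led the increases. H3C3, a replication-dependent gene for histone H3 (chr6:26045282-26046130), was at 96.1% ± 3.68 in OCI-AML3 and 0.301% ± 0.665 in AML5 over 48 CpGs, at similar depths of 66.98 and 66.4 calls per CpG. Its pooled shares were 96.0% (Wilson 95% interval 95.2% to 96.6%) and 0.282% (0.149% to 0.536%). A second island between H3C3 and H2BC3 stood at 95.4% and 7.88%, and H3C8, another histone H3 gene, at 92.3% and 0.897%. Of the 39 histone islands of chromosome 6, 28 were low in both lines (71.8%, against 66.5% of all promoter islands), 4 were higher (10.3%, against 3.64%) and 2, at the linker histone genes H1-1 and H1-3, were lower (5.13%, against 6.47%). Levels per gene rest on uniquely placed reads, and histone genes have close copies.

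The other large increases lay at unrelated genes. TUSC1, a tumor suppressor candidate of chromosome 9, was at 85.4% ± 16.2 in OCI-AML3 and 1.94% ± 9.0 in AML5 over 139 CpGs. MICU3, a regulator of calcium uptake by mitochondria, stood at 83.1% and 1.76%, and ARHGEF10 at 83.7% and 7.29%. The cadherin gene CDH7 was at 81.3% and 5.34%, the zinc finger gene ZFP28 at 83.9% and 9.54%, and DDIT4L, an inhibitor of mTOR signalling, at 90.4% and 16.6%. The SDs over CpGs in OCI-AML3 ran from 12.9 to 21.3 points in these 6 islands.

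Groups of genes were compared by counts alone. HOX genes, the clustered regulators of body axis and of blood progenitors, ranged widely in level, and the medians of their 37 islands were 49.6% in OCI-AML3 and 36.7% in AML5. Between 20% and 66% in both lines were 13 of them, with 6 low and 4 high in both. Of these 5 were lower and 9 higher (13.5% and 24.3%, against 6.47% and 3.64% of all promoter islands). HOXA held 4 of the 5 lower islands, at HOXA2 (24.6% in OCI-AML3 and 82.7% in AML5), HOXA10 (0.645% and 45.3%), HOXA13 (0.396% and 24.3%) and the island of HOXA3 and HOXA6 (1.96% and 26.7%). HOXB5 was the other lower one, at 15.2% and 50.0%. HOXD held 6 of the 9 higher islands, among them HOXD10 (86.8% and 56.4%) and HOXD12 (81.9% and 50.1%). HOXA4 went against its neighbours, at 95.4% in OCI-AML3 and 44.3% in AML5, and HOXA9 was low in both, at 0.149% and 11.1%.

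Of 142 islands of other homeobox and T-box genes, 15 were lower and 19 higher (10.6% and 13.4%, against 6.47% and 3.64% of all promoter islands). Between 20% and 66% in both lines were 68 of the 142, against 1392 of all 11567 measured promoter islands. OTP, a regulator of hypothalamic neurons, was at 89.8% in OCI-AML3 and 36.2% in AML5. An island of TBR1, a T-box factor of the cortex, was at 2.71% and 54.8%. Another island of TBR1 differed the other way, at 51.5% and 36.8%, and was not called. DLX5 was at 7.45% and 48.5%. Among forkhead and SOX genes 3 of 58 islands were lower and 6 higher (5.17% and 10.3%), with FOXD3, a neural crest factor, at 79.1% and 36.3%.

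Germline genes were mostly methylated in both lines. Of 54 islands of germline and meiosis genes, 31 were above 66% in both lines (57.4%, against 6.28% of all promoter islands), 2 were lower and 3 higher (3.7% and 5.56%, against 6.47% and 3.64%). SYCP3, a rod protein of the synaptonemal complex, was at 95.5% ± 3.18 in OCI-AML3 and 96.2% ± 2.84 in AML5, and DDX4, the RNA helicase of germ cells, at 95.8% and 95.4%. For SYCP3 the adjusted p of Fisher's exact test was 0.127. HENMT1, which methylates the ends of piRNAs, broke the pattern, with 8.51% in OCI-AML3 and 91.6% in AML5 over 118 CpGs. Clustered protocadherins, whose promoters are chosen at random in neurons, were also mostly methylated, with 26 of 33 islands high in both lines (78.8%, against 6.28%), 2 lower and 2 higher (6.06% each). PCDHGB7 was the most changed of them, at 85.7% and 21.8%. The islands most methylated in both lines over all promoters included ZNF74 (96.2% and 96.9%), PCGF3 (95.8% and 96.3%), PHF19 (96.2% and 95.8%), HUS1B (96.0% and 95.8%) and CMYA5 (95.7% and 95.9%).

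Some islands of imprinted genes carry methylation on 1 parental copy, which gives levels near the middle in normal cells. The list was made by gene and was not limited to such islands. Of 39 islands assigned to imprinted genes, 2 were lower and 4 higher (5.13% and 10.3%, against 6.47% and 3.64% of all promoter islands), 17 were low in both (43.6%, against 66.5%) and 7 were between 20% and 66% in both. ZDBF2, a paternally expressed gene, was the most changed, at 4.02% in OCI-AML3 and 54.2% in AML5. SNURF, at the imprinting centre of chromosome 15, was at 86.9% ± 16.4 in OCI-AML3 and 41.5% ± 12 in AML5. PEG10 and SGCE share an island that was at 58.3% in OCI-AML3 and 13.6% in AML5, whereas NAP1L5 was at 57.7% and 95.2%. NNAT was methylated in both, at 95.5% and 95.5%, and MCTS2 was intermediate in both, at 47.1% and 50.7%. The parental copies cannot be told apart in these counts.

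Zinc finger genes of chromosome 19 had more higher than lower islands. Of 207 islands 26 were higher (12.6%, against 3.64%) and 4 lower (1.93%, against 6.47%), while 129 were low in both. ZNF160 was at 71.8% ± 26.4 in OCI-AML3 and 0.543% ± 1.89 in AML5, ZNF814 at 83.3% and 13.0% and ZFP82 at 84.1% and 14.5%. ZNF439 was the widest exception, at 9.54% and 78.8%. The median difference of the list was -0.397 points, so its typical island was not higher.

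Of 39 islands of hematopoietic transcription factors, 5 were lower and 1 higher (12.8% and 2.56%, against 6.47% and 3.64% of all promoter islands), while 21 were low in both (53.8%, against 66.5%). FLI1, an ETS factor of megakaryocytes and progenitors, was at 26.8% in OCI-AML3 and 85.9% in AML5. The islands of EBF1, a B cell factor, were at 1.39% and 46.7% and at 0.17% and 32.9%, and KLF1, the erythroid factor, at 16.9% and 61.3%. The higher one was GFI1, a repressor in granulocyte precursors, at 23.1% and 2.38% over 495 CpGs. MYB, ETV6 and JUNB were under 1% in both lines, and CEBPA was at 0.936% and 4.67%. A list of 25 neutrophil and monocyte genes, which also held the progenitor genes CD34, KIT and FLT3, had 8 measured islands. Of these 3 were lower (37.5%, against 6.47%) and 0 higher (against 3.64%). ELANE, neutrophil elastase, was at 2.45% ± 5.66 and 84.6% ± 17.7 over 143 CpGs, the integrin gene ITGB2 at 2.59% and 26.6%, and ANPEP, which encodes CD13, at 29.1% and 56.2%. The 5 others, at CD14, CD34, KIT, FLT3 and FUT4 with PIWIL4, were not called. Over CpGs at least 200 bp from an edge, CD14 was at 36.1% in OCI-AML3 and 32.4% in AML5.

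Genes often methylated in cancers were mixed. Of 51 islands 9 were lower and 4 higher (17.6% and 7.84%, against 6.47% and 3.64% of all promoter islands). CADM1, an adhesion molecule, was at 1.81% in OCI-AML3 and 50.7% in AML5, while ZNF154 was at 88.9% and 28.9%. Among 20 islands of Wnt antagonists 1 was lower and 2 were higher (5% and 10%). SFRP1 was the lower one, at 19.9% and 57.7%. NKD2 (50.7% and 4.23%) and an island of KREMEN1 over 67 CpGs (66.3% and 30.8%) were higher. Another KREMEN1 island, over 165 CpGs, was not called, at 25.6% and 28.4%. Of the 6 islands of CDK inhibitors CDKN2B alone was called. Genes that write, read or erase DNA methylation had 1 lower island of 21 (4.76%) at UHRF2 (0.512% and 27.3%), while DNMT3A was at 5.77% and 13.8% and DNMT1 at 5.66% and 23.1%.

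The study's signature genes were picked partly on these libraries and are therefore no independent evidence. Of the 12 genes, 11 had a measured island, and they had 12 islands here. By size and Fisher's exact test together 5 islands were lower and 0 higher (41.7% and 0%, against 6.47% and 3.64% of all promoter islands). Besides TRIP6, CAVIN3 and CADM1 the lower ones were ADAMTS5, an aggrecan-cleaving protease (20.4% in OCI-AML3 and 64.4% in AML5), and KLF2 (21.7% and 45.6%). HOXA11 stood just under the size limit, at 0.196% and 19.96%. MEIS1, a cofactor of HOX proteins, was low in both lines over this island, at 15.7% in OCI-AML3 and 8.18% in AML5, and IRF8 was at 0.18% and 4.5%. The study lists both genes as clearly less methylated at the promoter in OCI-AML3. It also lists HOXA11, HOXB2, NRG4 and PLD6 as less methylated there. Its promoter measure and the CpGs it stresses at MEIS1 need not be the CpGs of this island mean. The island values therefore do not test its result. The remaining islands were HOXB2 (21.3% and 29.9%), PLD6 (7.75% and 11.0%) and the one of NRG4 and TMEM266 (0.864% and 2.88%).

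Ribosomal protein genes, including a few ribosomal-like paralogs, had medians of 0.428% and 1.81% over 77 islands, of which 68 were low in both lines (88.3%, against 66.5% of all promoter islands), 2 high in both, 3 lower (3.9%, against 6.47%) and 0 higher (against 3.64%). Among the lower ones were RPS15 (2.99% in OCI-AML3 and 29.97% in AML5) and RPS13 (7.33% and 31.9%). Their SDs over CpGs in AML5 were both 41.5 points.

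**Figure D4:**
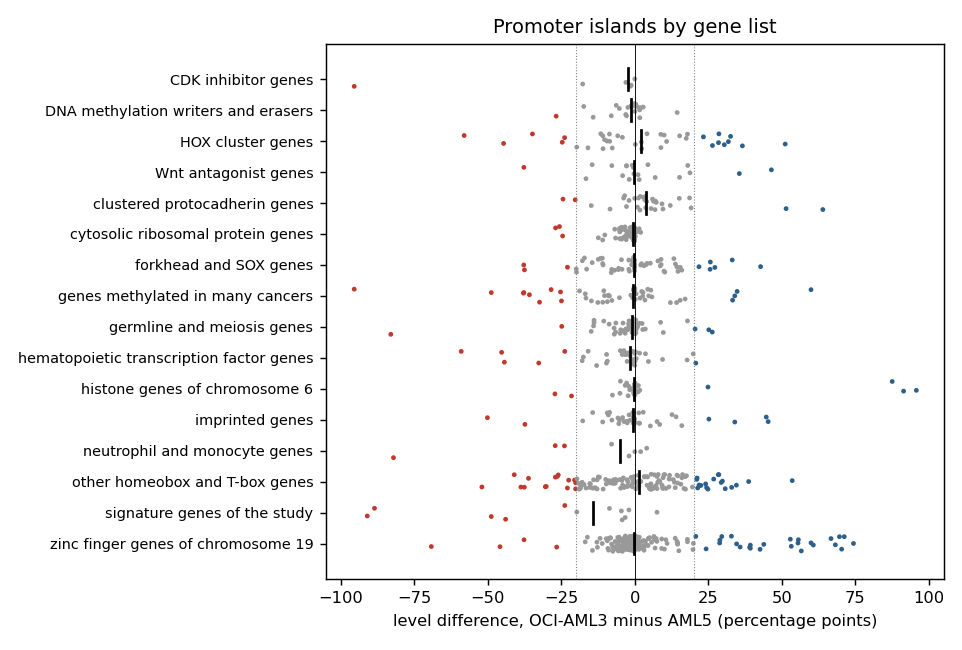
Difference in level, OCI-AML3 minus AML5 (x axis, percentage points), for each promoter island of 16 gene lists. Points are islands, shifted at random in height, red if lower, blue if higher and grey if not called, with a black bar at the list's median and dotted lines at -20 and 20. HOX genes (5 lower, 9 higher) spread both ways, zinc finger genes of chromosome 19 have their called points mostly on the right (26 of 30), and ribosomal protein genes stay mostly near 0, apart from 3 lower islands.

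The level changed from the middle to the edge, and not in the same direction in every group. Among islands low in both lines, CpGs in the outer 50 bp averaged 17.0% in OCI-AML3 and 25.1% in AML5, and CpGs over 750 bp from an edge averaged 0.649% and 1.19%. The difference between the lines shrank with it, from -8.05 points at the edge to -0.536 points inside. In islands called lower the lines differed by -24.2 points in the outer 50 bp and by -37.2 points at 400 to 500 bp from the edge. Over 750 bp from an edge they differed by -30.0 points. Only longer islands reach so far inside, 282 of the lower ones and 2875 of those low in both, so the bins compare different islands. OCI-AML3 itself was lower at the edge than inside in the islands called higher, at 57.8% in the outer 50 bp and 66.99% over 750 bp from an edge, and in those high in both, at 78.8% and 86.0%. In islands called higher the difference grew from 11.2 points in the outer 50 bp to 38.9 points at 500 to 750 bp, and was 36.3 points further inside. Most calls held in the inner part of the island. Over CpGs at least 200 bp from an edge, 654 of the 713 lower islands with 10 or more such CpGs (91.7%) and 400 of 409 higher ones (97.8%) still differed by 20 points. By contrast, of 938 islands low in OCI-AML3 and between 20% and 66% in AML5, 313 (33.4%) were under 20% in both lines over that inner part.

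**Figure D5:**
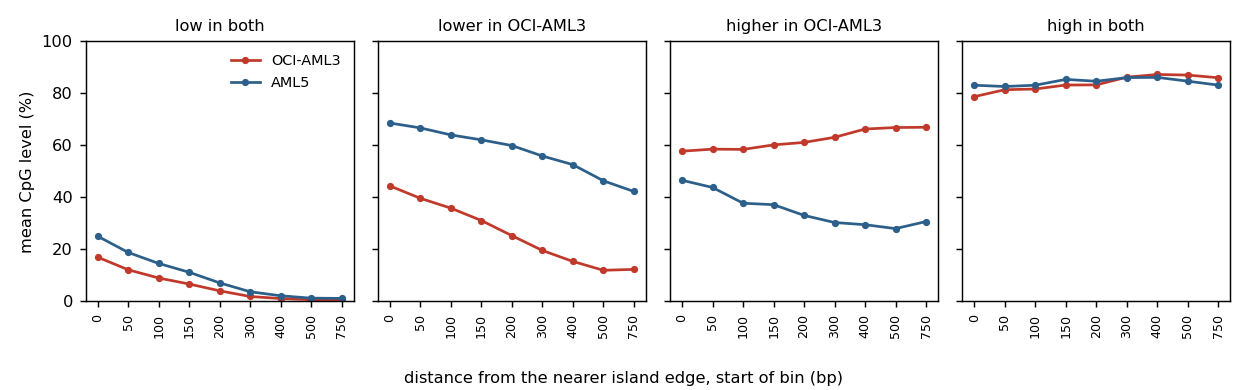
Mean CpG level (y axis, %) by distance from the nearer edge of the island (x axis, bp, start of each bin, bins unequal in width) in OCI-AML3 (red) and AML5 (blue) for 4 groups of promoter islands. Both lines fall towards 0 inside islands low in both (0.649% and 1.19% in the last bin), and the lines are furthest apart inside the islands called lower or higher rather than at their edges.

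An intermediate level seldom meant that each CpG was intermediate. Of 1813 islands between 20% and 66% in OCI-AML3, 46.4% were split, with under 30% of their CpGs in that range, and 87 were even, with 70% or more, and of 2635 such islands in AML5, 40.5% were split and 42 even. Islands closest to 50% in both lines, such as the one of RIBC2 and SMC1B (49.4% and 49.9%, SD over CpGs 43.9 and 40.7) and WIF1 (52.1% and 52.5%, SD 35.6 and 37.1), mixed methylated and empty CpGs. Just 9 islands were even in both lines. They included MCTS2, the island of NAA60 and ZNF597 (49.5% and 60.5%), the one of CIDEB and LTB4R (46.4% and 41.2%, SD 10.5 and 7.97), ZFP37 (46.3% and 45.9%) and H2AC14 with H2BC14 (46.3% and 51.4%).

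Features of sequence and gene content, which the calls did not use, were set side by side for the groups of islands. Islands with 2 or more genes were 18.3% of those low in both, 6.02% of the lower, 5.94% of the higher and 5.01% of those high in both that were not called. The ratio of observed to expected CpGs had medians of 0.794, 0.724, 0.773 and 0.697 in these groups. With islands ranked by that ratio into 4 equal groups, the share of lower islands went from 12.2% in the poorest to 3.7% in the richest, while that of higher islands stayed between 3.25% and 4.29%. In the central 300 bp the Sp1 box GGGCGG, read on both strands, was found in 77.3% of islands low in both, 70.99% of the lower, 68.2% of the higher and 56.1% of those high in both, against 74.0% of all measured promoter islands. The ETS motif CCGGAAG was found in 15.9% of islands low in both and in 5.75%, 4.99% and 5.58% of the other groups, against 12.6% of all. The CCAAT box was in 22.0%, 13.1%, 19.7% and 14.2%. These are counts of letters and not of bound sites, and the shares were not tested.

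Most called islands had a nearest promoter island that was not called the same way. The share that did was near that over all promoter islands for the lower islands and above it for the higher ones. Neither was tested. The nearest other promoter island was also lower for 60 of the 748 lower islands (8.02%) and also higher for 65 of the 421 higher ones (15.4%), beside 6.47% and 3.64% of all. Chromosomes differed in the balance. On chromosome 17, 49 of 703 islands were lower and 8 higher (6.97% and 1.14%). On chromosome 11 the counts were 58 and 19 of 656 (8.84% and 2.9%). They were 30 and 36 of 463 on chromosome 4 (6.48% and 7.78%), and 30 and 30 of 422 on chromosome 8 (7.11% each). Over all promoter islands the shares were 6.47% and 3.64%. Among these chromosomes the share of higher islands varied more than that of lower ones. Copy number of these chromosomes in the lines was not analysed here.

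Islands inside the bodies of the same genes were mostly methylated in each group of promoters. For 2507 genes with a promoter island low in both lines, the median level of their gene body islands was 89.4% in OCI-AML3 and 92.1% in AML5, while their promoter islands had medians of 1.1% and 3.08%. For 278 genes with a lower promoter island, the gene body medians were 75.6% and 80.9%, and 44 of these genes had a lower gene body island and 17 a higher one. For 131 genes with a higher promoter island they were 74.6% and 75.4%, and 25 had a lower gene body island and 25 a higher one. Among the 2507 genes low in both at the promoter, 282 had a lower gene body island and 50 a higher one. Counted by island, 49 of 490 gene body islands were lower and 17 higher where the promoter was lower. The counts were 36 and 31 of 493 where it was higher, and 334 and 51 of 4928 where it was low in both. Of all measured gene body islands, 8.05% were lower and 2.54% higher. These shares were not tested.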

How the data were processed

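Genomic DNA of OCI-AML3 and AML5 was sheared, bisulfite-converted and sequenced as paired ends. The authors aligned reads to hg19 with Bismark and, per the submitters' processing notes, Bowtie 0.12.8, and deposited 2 raw counts for each CpG, its methylated and its unmethylated calls, with both strands added together. Removal of duplicate reads is not given in the sources used here. All 26752702 autosomal positions matched CpGs of GRCh37. The mitochondrial share of the methylated column was 0.169% and 0.1%, which set its meaning. The depth was a median of 28 calls per autosomal CpG in OCI-AML3 and 31 in AML5.

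Islands, levels and calls were computed as described with Python 3.11.15, numpy 2.4.6, scipy 1.17.1, pandas 2.3.3 and statsmodels 0.14.6, and tested on simulated data. CpGs needed more than 5 reads in both lines and islands 10 such CpGs. Called islands differed by 20 points with Fisher's exact test (two-sided) under 0.05 after Benjamini-Hochberg adjustment. Split islands had under 30% of their CpGs between 20% and 66%, even ones 70% or more. Named were the 10 largest decreases and increases, the 10 most methylated in both lines and the 10 closest to 50% in both (at least 20 CpGs and 10 calls per CpG), up to 4 members per gene list by size of difference, and the signature genes. Other members named in the lists, the 9 even islands and genes with several islands were chosen after their values were seen. The members and lists were chosen with earlier results of these data known. The alternatives tried are given at the end. Some members that met the naming rule are not reported here.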

Additional observations from a re-analysis of the deposited data

How the results depend on the processing

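Counts of lower, higher, low, high and switched islands stayed within 1.5 times their value when CpGs needed 10 reads or 1, islands 5 or 20 CpGs or 10 calls per CpG, and when calls were pooled, the promoter window was narrowed to 500 bp or doubled, or the density limit was 50. A test on CpGs 300 bp apart called 676 lower and 355 higher islands. A limit of 10 points gave 1704 lower and 780 higher, and one of 30 points gave 376 and 202. Taking any transcript start as a promoter gave 1170 lower islands, 2565 high in both and 97 high in AML5 and low in OCI-AML3. A density limit of 30 gave 1131 islands high in both. States set at 10% and 80% gave 458 high in both, 20 high in AML5 and low in OCI-AML3, and 8 of the opposite kind. The mean difference was -3.17 points with pooled calls, -2.71 and -2.91 with the narrowed and the doubled window, -3.42 with any transcript start and -3.63 and -2.27 with density limits of 30 and 50. It was -2.07 over CpGs at least 200 bp from an edge, an alternative chosen after seeing the data, which gave 736 lower and 468 higher islands. Apart from the settings' own construction the cause was not tested. The 10 largest decreases and the 10 largest increases kept their calls with 10 reads per CpG, with pooled calls and away from the edge, where an island could still be measured. The 10 islands most methylated in both lines were tried the same way. Their differences moved by no more than the half-width of their Wilson interval in AML5. Most of the 10 closest to 50% in both moved by more in some setting. With pooled calls the island of RIBC2 and SMC1B went from -0.473 to -5.85 points and WIF1 from -0.333 to -2.24 points. Islands named only from gene lists or as signature genes were not tried one by one. Called islands within 30 points lose their call at that limit. No paired analysis was possible because each line has 1 library. Depth limits islands such as CDKN2B, with 10.3 calls per CpG in AML5.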
